A study of Mus musculus with 11 samples.

Results

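The genes described here are the replication-dependent histone genes of the mouse, defined as protein-coding genes whose symbol starts with Hist1h, Hist2h, Hist3h or Hist4 in the GENCODE annotation of GRCm38. The deposited table held 59 of them among 39179 gene identifiers, and 8 further genes of that definition are not used here. They comprised 6 H1, 18 H2A, 15 H2B, 7 H3 and 13 H4 genes. Of these, 47 lie in the Hist1 region of chromosome 13 (21715763 to 23934851), 9 in the Hist2 region of chromosome 3 (96219865 to 96269141), 2 in the Hist3 region of chromosome 11 and 1, Hist4h4, on chromosome 6. The annotation gives 54 of them a single exon.

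Core histones H2A, H2B, H3 and H4 form the nucleosome, and linker histone H1 binds where DNA enters and leaves it. The genes of these clusters are transcribed mainly in S phase, when newly made DNA is packed into chromatin. Their main messenger RNAs end in a conserved stem-loop in place of a poly(A) tail; the stem-loop-binding protein Slbp holds that structure, and a cleavage complex guided by the U7 small nuclear RNA cuts just after it.

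The stem-loop letters are shown because they are the shared sequence feature of these transcripts. Some genes with the motif, such as Hist1h1c and Hist1h4i, also have an annotated transcript with a poly(A) signal near its end. The motif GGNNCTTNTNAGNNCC was found after the coding end of an annotated transcript in 41 of the 59 genes, against 52 of 21023 other coding genes (0.247%). It began 21 to 58 bases after the coding end. Among the 41, 23 shared the core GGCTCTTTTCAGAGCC, 7 shared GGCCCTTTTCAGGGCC and 5 shared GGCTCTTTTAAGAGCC. Of the 18 genes without a match, 12 have fewer than 16 annotated bases after the coding end, so their absence says only that these letters are not in the annotated transcript. In the following GENCODE transcript sequences, written 5′ to 3′, capitals mark the 16 bases of the motif.
Hist1h1c: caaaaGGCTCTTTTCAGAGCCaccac
Hist1h1d: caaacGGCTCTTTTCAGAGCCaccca
Hist1h1e: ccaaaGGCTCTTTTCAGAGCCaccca
Hist2h2ac: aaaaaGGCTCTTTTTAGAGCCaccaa
Hist1h2bj: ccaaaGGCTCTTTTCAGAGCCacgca
Hist1h3c: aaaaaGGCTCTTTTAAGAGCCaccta
Hist1h4f: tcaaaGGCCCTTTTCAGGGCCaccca
Hist1h4i: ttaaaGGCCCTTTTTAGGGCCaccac

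RNA was sequenced from C57BL/6 mouse embryonic stem cells (ESCs) and from embryoid bodies (EBs, floating aggregates of differentiating ESCs), each from Mettl3 knockout (KO) and wild-type (WT) lines. Mettl3 is the enzyme that writes N6-methyladenosine on messenger RNA. ESCs were kept without serum in N2B27-based medium with LIF and the inhibitors CHIR99021 (1 to 3 µM) and PD0325901 (1 µM), and EBs were grown unattached in medium with serum for 8 to 21 days. KO and WT ESCs had replicates A, B and C, and KO and WT EBs had replicates A and B; the labels tie replicate C to a SILAC experiment, and it is shown apart. The labels call the replicates biological, and they do not say whether each genotype is 1 clone, so p values measure the spread between these libraries. The series text calls these poly(A) libraries, but ESC and EB replicates A and B held large counts of RNAs known to lack a tail, with 92183 to 220409 normalized counts of Rn7sk, so how RNA was selected for them is uncertain and bears on every histone value in them. The values are counts that the authors normalized with DESeq size factors, from which whole reads were recovered.

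Reads assigned to genes numbered 3075007 and 3026837 in replicate C of KO and WT ESCs and 8523027 to 15426894 in the other 8 libraries. Mettl3 had 131 to 154 normalized counts in the 5 KO libraries and 368 to 425 in the 5 WT libraries. The 10 naive ESC markers, such as Nanog and Esrrb, summed to 42225 to 53654 in ESC replicates A and B, to 49493 and 111321 in replicate C of KO and WT ESCs, and to 21750 to 34330 in EBs. The 8 endoderm markers summed to 270 and 279 in KO EBs against 45062 and 45571 in WT EBs. Replicates A and B of a group had r from 0.988 to 0.990 across genes on the log2 scale, while replicate C had r from 0.653 to 0.692 with A and B of its own group. In bulk samples such as these, fewer cells in S phase and less histone RNA per cell cannot be told apart.

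In ESC and EB replicates A and B, histone cluster transcripts were abundant. They took 1.61% and 1.37% of the reads assigned to genes in KO ESCs and 1.87% and 1.61% in WT ESCs, and 1.5% and 1.28% in KO EBs against 1.39% and 1.12% in WT EBs. Per kilobase of exon, over these 8 libraries, the leading H4 genes were Hist1h4f at 17074 and Hist1h4k at 14936 normalized counts. The leading H3 genes Hist1h3c and Hist1h3e stood at 8956 and 7962, the H2B genes Hist1h2bb and Hist1h2bg at 8536 and 6295, the H1 genes Hist1h1a and Hist1h1c at 7505 and 6756, and the H2A genes Hist1h2ak and Hist1h2ai at 5172 and 3976. These orders depend on the annotated exon length, which joins all transcripts of a gene. Hist1h4d, with 1138 bases, averaged 7848 normalized counts over these libraries, or 6896 per kilobase. Hist1h4f, with 391 bases, averaged 6676. Likewise Hist1h1d, with 7425 bases, averaged 9057, or 1220 per kilobase. Reads aligned to several places are a further limit. The counter's line for them, assigned to no gene, held 36.9% to 46.1% of each of these 8 columns' total. In addition, 30 of the 59 genes have under 50% of their 50-base words to themselves. Hist2h3c1 and Hist2h2aa2, which have no unique word, had no read in any library. Hist2h3b and Hist2h2aa1 have no unique word either, but averaged 930 and 7.61 normalized counts over the 8 libraries.

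**Figure D1:**
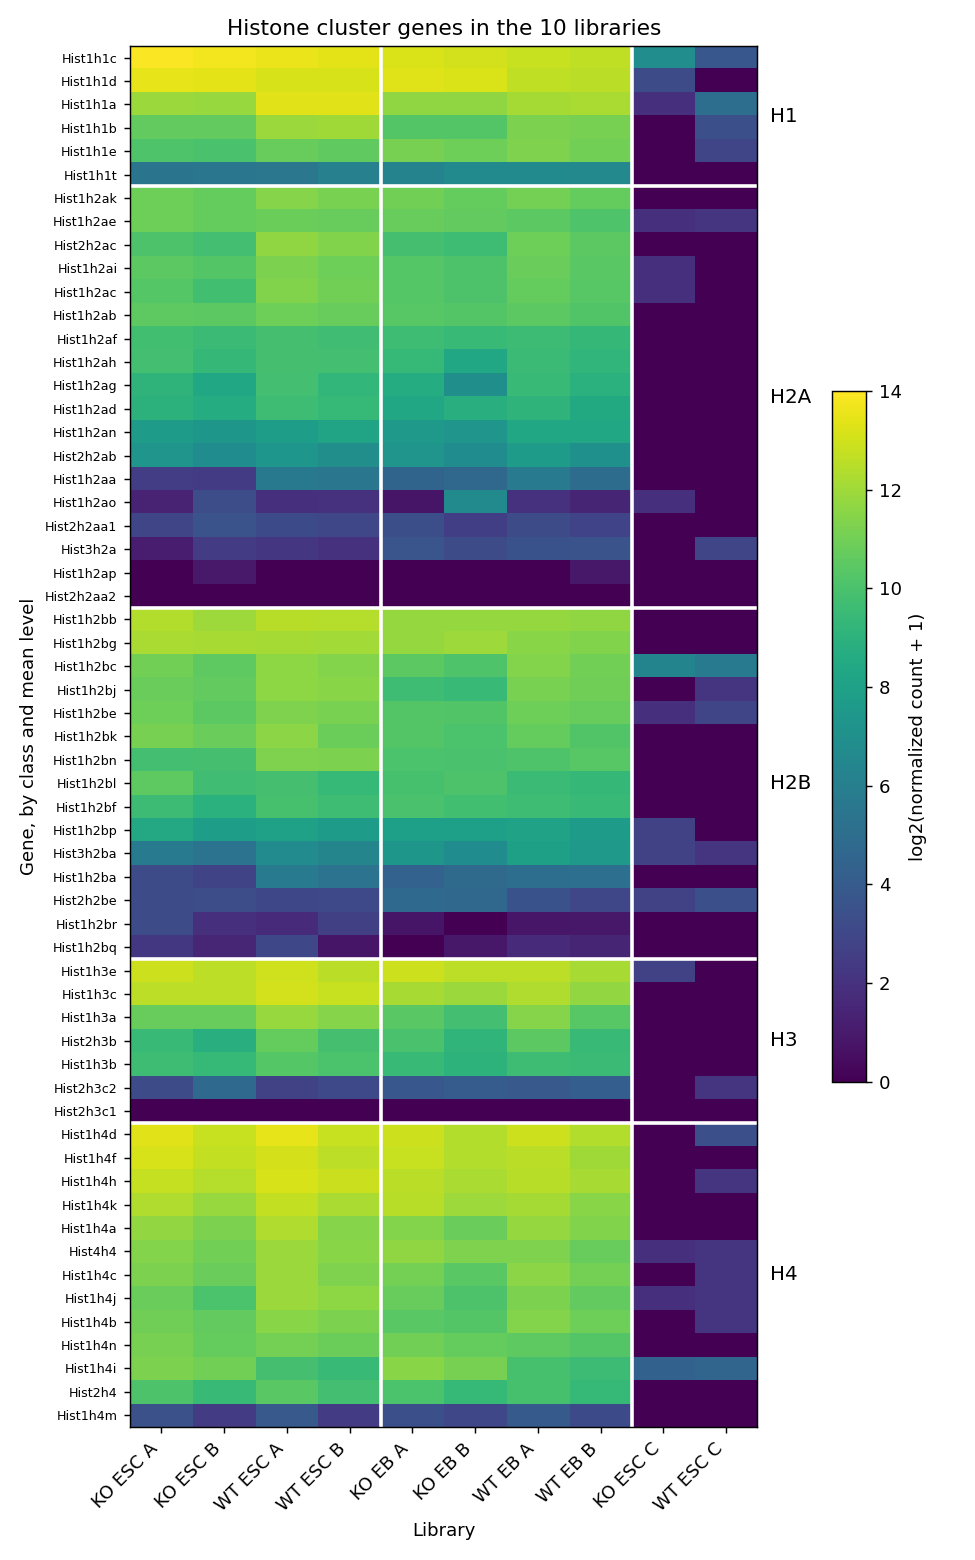
Level of each of the 59 histone cluster genes, as log2(normalized count + 1), in the 10 libraries (columns), with genes grouped by class and ordered by mean level; colour runs from 0 to 14. Replicates A and B of ESCs and EBs hold most genes at high levels, and the 2 replicate C columns at the right are at or near 0 for nearly all of them.

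Replicate C of the ESCs held almost none of these transcripts. Members summed to 267 normalized counts in KO replicate C and 204 in WT replicate C, against 135345 and 110162 in KO replicates A and B and 166642 and 137310 in WT replicates A and B. That was 96 reads in KO and 62 reads in WT, or 0.00312% (exact 95% binomial interval 0.00253 to 0.00381%) and 0.00205% (0.00157 to 0.00263%) of the reads in genes; these intervals cover counting error only. No read was seen for 43 members in KO C and for 40 in WT C, and 34 had none in either.

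Hist1h4f, with 9233 and 6638 normalized counts in KO ESC replicates A and B and 8638 and 6308 in WT, had no read in either replicate C library. Set against the floor of 3 reads in 1 library, it was at least 952-fold lower in KO C and at least 756-fold lower in WT C. Hist1h3c was at least 748-fold lower in KO C and at least 795-fold lower in WT C by the same measure. In a limma fit on log2 values of all genes with a term for replicate C, 49 of the 51 tested members were lower in C at an adjusted p under 0.05 and none higher, where 71.3% of all 15781 tested genes passed in either direction (41.5% lower and 29.8% higher). The median difference was -9.71 on the log2 scale over these members and -0.22 over all genes, and -7.39 for the members when those under 3 reads in C were set at 3 reads. Nearly all tested members passed the filter on low values through A and B, so the filter favoured members with room to fall in C. With no such filter, 53 of 57 members were lower in C and none higher, where 44.8% of all genes passed in either direction. That count keeps the same limit, since only members with reads in A and B can be lower in C. Replicate C was 1 library per genotype, so these counts describe those libraries only.

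The few members with more than 3 reads in a replicate C library were Hist1h1c (42 reads in KO and 4 in WT), Hist1h2bc (28 and 17), Hist1h4i (7 and 7) and Hist1h1a (1 and 10). Hist1h2bc, an H2B gene whose annotated transcripts run 742 bases past the coding end without the motif, kept 4.39% of its A and B mean in KO C and 1.90% in WT C. Hist1h1c kept 0.797% in KO C and 0.112% in WT C. Hist2h2be, an H2B gene annotated for 2192 bases past the coding end, was low throughout. It had 5.55 normalized counts in KO C against a mean of 8.89 in KO A and B, and 9.88 in WT C against 7.39 in WT A and B, and its difference between C and A and B was -0.11 (SE 0.33, adjusted p = 0.781). A read in either replicate C library was seen for 15 of the 19 members with over 300 annotated bases after the coding end, and for 10 of the 40 others. Apart from the genes named above with more than 3 reads, members had at most 3 reads in a C library. A longer annotated transcript also offers more exon to reads, and the part of length or unique sequence in this split was not tested.

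Other RNAs without a poly(A) tail moved with the members. The 12 tested genes of the list of such RNAs were all lower in C, with a median of -10.69. Like the members, they passed the filter on low values through A and B. Rn7sk, the RNA of the 7SK complex, had 5.55 normalized counts in KO C and none in WT C, against 188949 and 201312 in KO A and B and 100484 and 107834 in WT A and B. Histone genes outside the clusters, most of which make transcripts with a tail, went both ways, with 4 of 11 higher and 4 lower in C. H2afx, known to make both a tailed and a stem-loop transcript, was lower in C than in A and B by a log2 difference of -2.30 in KO and -2.63 in WT. It was not alone in this list, as H2afj differed by -2.61 in KO and -1.65 in WT, and H2afy2 by -1.03 and -1.50. H2afz, a replacement H2A, had 6230 and 7016 normalized counts in KO and WT C, against 410 and 327 in KO A and B and 431 and 369 in WT A and B. H3f3a, which encodes a replacement H3, had 4619 and 6881 in KO and WT C, against 372 and 404 in KO A and B and 530 and 567 in WT A and B. Of the 26 S-phase genes, 14 were higher and 1 lower in C, where 29.8% of all tested genes were higher and 41.5% lower. The 8 fibroblast and matrix markers summed to 231 in both replicate C libraries, against 11651 and 12001 in KO A and B and 7126 and 7309 in WT A and B. Their part in the result was not tested, and what else differed between C and the libraries A and B cannot be told apart.

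**Figure D2:**
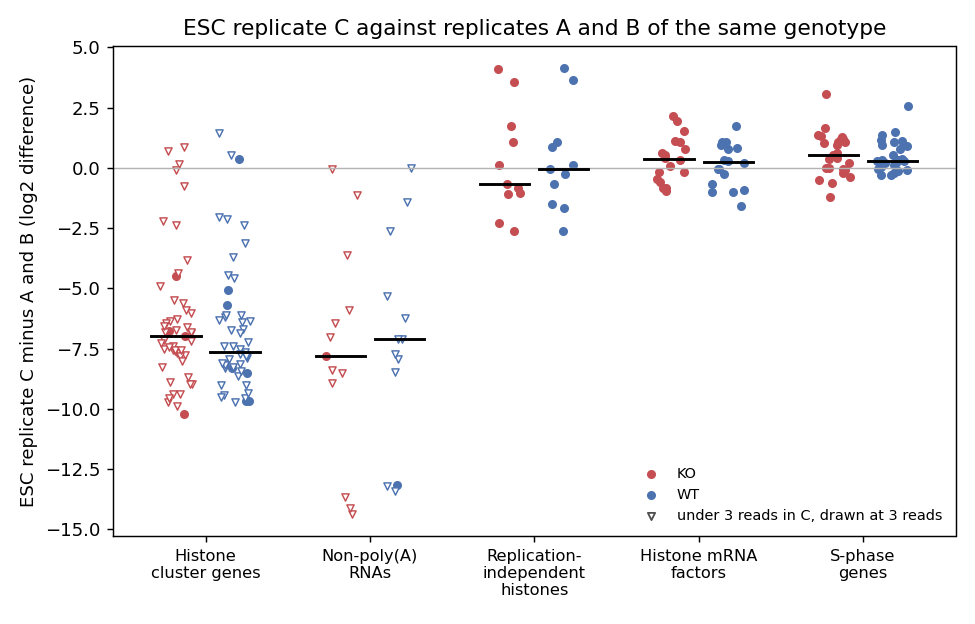
Log2 difference between ESC replicate C and the mean of replicates A and B of the same genotype (vertical axis), for each gene of 5 lists; KO points are left of WT points and lines are medians. Downward triangles are genes with under 3 reads in C, set at 3 reads; medians of histone cluster genes were -6.96 in KO and -7.63 in WT, and those of the S-phase genes 0.54 and 0.30.

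KO was compared with WT within ESCs and within EBs in replicates A and B, in one limma fit of the 8 libraries on log2(normalized count + 1), with Benjamini-Hochberg adjustment over the 15896 genes with a mean of 10 or more. Of the 59 members, 51 passed that filter. Just inside it were Hist2h2be (mean 12.7), Hist2h3c2 (13.5) and Hist1h2ao (15.1), and just outside it Hist1h4m (9.09) and Hist2h2aa1 (7.61).

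In ESCs, KO cells held less histone cluster RNA in sum. They had 135345 and 110162 normalized counts against 166642 and 137310 in WT cells, a ratio of means of 0.808. The groups did not overlap on this scale, but the lower WT value lay close to the higher KO value. Scaled to the other protein-coding genes, the groups overlapped. Sums were then 131733 and 109472 in KO ESCs and 156144 and 130341 in WT ESCs, a ratio of 0.842. By the test, 20 members fell and 3 rose in KO ESCs, where 55.0% of all tested genes passed in either direction (27.6% lower and 27.3% higher). The median difference over members was -0.42, against 0.00 over all genes, and it ran between -0.63 without KO replicate A or WT replicate B and -0.28 without WT replicate A (-0.30 without KO replicate B). Members that fell were spread over all classes, with 3 of 6 tested H1, 8 of 14 H2A, 6 of 13 H2B, 1 of 6 H3 and 2 of 12 H4 genes. Those that rose were 2 H1 genes and 1 H4 gene. The KO libraries lay below both WT libraries for 30 members and above them for 6, where 77.2% of all genes did not overlap. With the replicate letter as a block, 28 fell and 6 rose, where 70.5% of all tested genes passed. There were 12 members that passed with the block alone. Hist1h2ad, at -0.71 (adjusted p = 0.0257), had an adjusted p of 0.229 with the block.

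The somatic linker histones went both ways. Hist1h1a (ENSMUSG00000049539, chromosome 13, 23763666 to 23764406, plus strand) had 3842 and 3684 normalized counts in KO ESCs, against 10566 and 10686 in WT ESCs. The groups were far apart, with a log2 difference of -1.5 (SE 0.07, adjusted p = 1.35e-06). Hist1h1b (ENSMUSG00000058773) had 1564 and 1613 in KO ESCs, against 3804 and 4119 in WT ESCs, and fell by 1.32 (SE 0.07, adjusted p = 3.68e-06). Hist1h1e fell by 0.62 (SE 0.12, adjusted p = 0.00279), although 25.7% of its exon length is shared with Hist1h2be and a predicted gene. The counter kept a separate line for ambiguous reads, so reads from the shared part may be missing from the count of Hist1h1e.

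Hist1h1c (ENSMUSG00000036181), the most abundant member in total counts, had 15619 and 13640 in KO ESCs, against 12360 and 11166 in WT ESCs. Both KO libraries lay above both WT libraries, and it rose by 0.31 (SE 0.11, adjusted p = 0.0339), a call that was lost without KO replicate A or WT replicate B (highest adjusted p = 0.204). Hist1h1d rose by 0.29 (SE 0.07, adjusted p = 0.00721), with 11482 and 10865 in KO ESCs against 9271 and 8970 in WT ESCs; without KO replicate A its adjusted p was 0.0575. All H1 genes but Hist1h1e have over 90% of their 50-base words to themselves. H1 genes made up 24.9% and 28.0% of the histone sum in KO ESCs and 22.7% and 26.6% of the histone sum in WT ESCs. The ranges overlap, but within each letter the H1 share was higher and the histone sum lower in KO ESCs than in WT ESCs.

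Among core histones of ESCs, Hist2h2ac, an H2A gene of the chromosome 3 cluster, fell most among members that averaged at least 100 in KO or WT. It had 1078 and 905 normalized counts in KO ESCs, against 3327 and 2617 in WT ESCs, and fell by 1.58 (SE 0.18, adjusted p = 0.000111), though a predicted gene overlaps 27.1% of its exon length. The H2B gene Hist1h2bn had 885 and 940 in KO ESCs, against 2499 and 2394 in WT ESCs, and fell by 1.42 (SE 0.09, adjusted p = 5.01e-06); only 13.6% of its 50-base words are unique, so its level is uncertain. The H2B gene Hist1h2bj, with 40.6% of its words unique, had 1809 and 1595 in KO ESCs, against 3146 and 2940 in WT ESCs, and fell by 0.84 (SE 0.11, adjusted p = 0.00025).

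One H4 gene moved the other way. Hist1h4i (ENSMUSG00000060639, chromosome 13, 22040636 to 22041362, minus strand) had 2379 and 2104 normalized counts in KO ESCs, against 924 and 715 in WT ESCs, and rose by 1.46 (SE 0.17, adjusted p = 0.000135). The H4 genes most abundant per kilobase did not pass in the fit without the replicate block. Hist1h4f had 9233 and 6638 in KO ESCs against 8638 and 6308 in WT ESCs, a difference of 0.08 (SE 0.26, adjusted p = 0.799), where replicate A was above B in both genotypes. With the replicate letter as a block, its adjusted p was 0.00332. That of Hist1h4k, at -0.37 (SE 0.28, adjusted p = 0.294), was then 8.51e-11. Hist1h2bf (-0.51, adjusted p = 0.0598) and Hist1h1t (-0.39, adjusted p = 0.163) had 0.000244 and 0.0429 with the block. The block leaves few libraries to measure the spread of a gene, so these adjusted p values lean on the spread of all genes. Whether letters mark pairs was not settled, so they are given only as an alternative. The abundant H3 genes Hist1h3e and Hist1h3c differed by 0.00 (SE 0.20, adjusted p = 0.987) and -0.33 (SE 0.18, adjusted p = 0.154).

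Of 3 members known from the testis, all low, Hist1h2aa and Hist1h2ba fell in KO ESCs. Hist1h2aa had 4.90 and 4.54 normalized counts in KO ESCs, against 49.4 and 44.3 in WT ESCs, a log2 difference of -3.06 (SE 0.28, adjusted p = 3.71e-05); another annotated gene overlaps 33.1% of its exon length. Its neighbour Hist1h2ba, a testis H2B, had 8.71 and 6.36 in KO ESCs, against 50.8 and 38.9 in WT ESCs, a difference of -2.43 (SE 0.26, adjusted p = 9.47e-05). The third testis gene, Hist1h1t, did not pass, with 40.8 and 44.5 in KO ESCs against 45.8 and 68.7 in WT ESCs. Beside them, germ cell genes were also lower in KO ESCs, with 4 of 5 tested genes of that list lower and none higher, and its sum at 169 and 193 in KO ESCs against 584 and 656 in WT ESCs. Among them Dazl, an RNA-binding protein of germ cells, had 31.6 and 36.3 in KO ESCs, against 254 and 304 in WT ESCs, and Mael, of the piRNA pathway, had 9.25 and 12.7 in KO ESCs against 163 and 155 in WT ESCs. The spermatid genes Prm1, Prm2 and Tnp1 were at or near 0 in every library, and the part of the germ cell genes in the members' values was not tested.

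**Figure D3:**
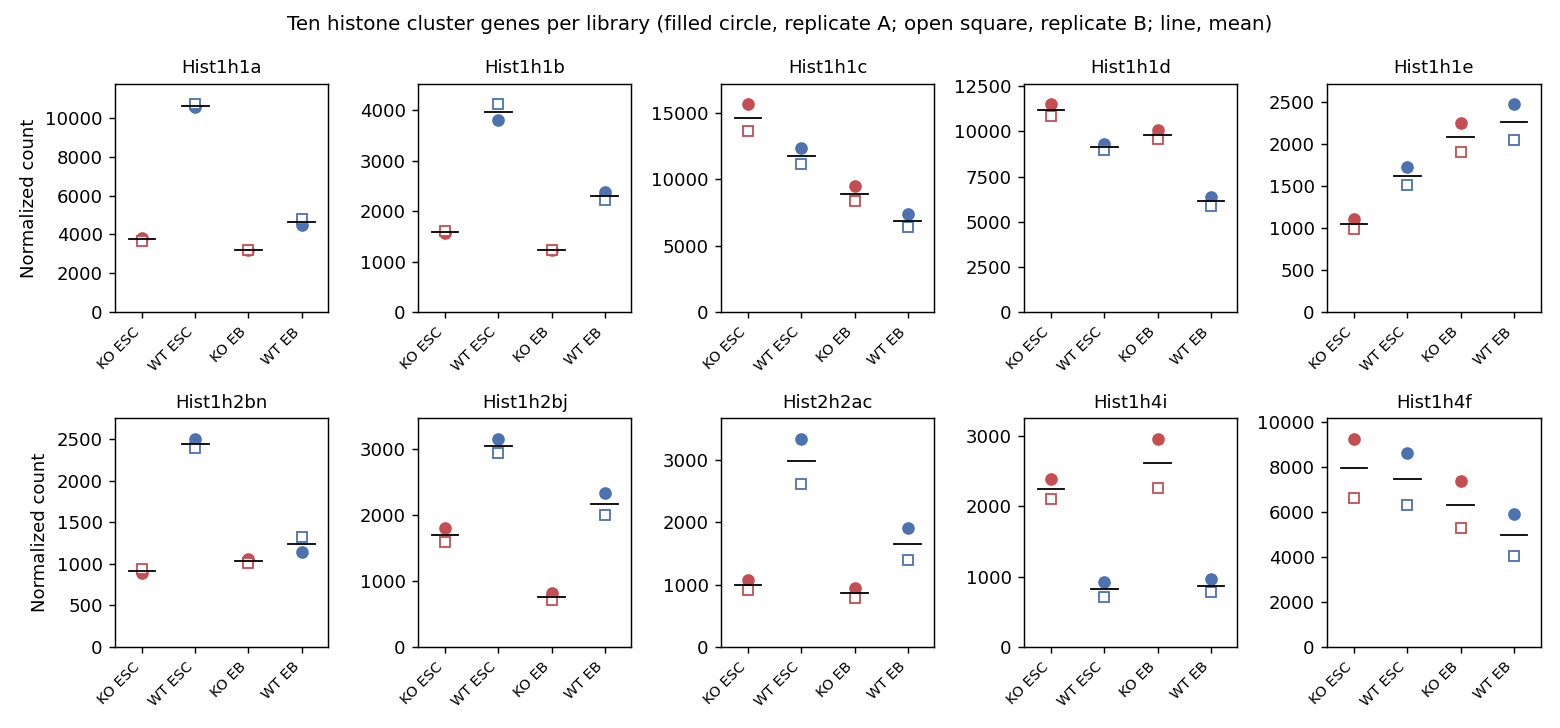
Normalized counts of 10 histone cluster genes (vertical axes from 0) in replicates A (filled circle) and B (open square) of KO and WT ESCs and EBs; lines are means of 2. Hist1h1a stood at 3842 and 3684 in KO ESCs and at 10566 and 10686 in WT ESCs, while Hist1h4i was above 2100 in both KO groups and under 1000 in both WT groups.

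In EBs, the histone sum did not differ between the genotypes beyond the spread of the libraries, with 112477 and 92683 normalized counts in KO EBs against 113245 and 88285 in WT EBs, a ratio of 1.02. Yet 7 members rose and 9 fell, where 51.8% of all tested genes passed (24.0% higher and 27.8% lower). KO libraries lay below both WT libraries for 17 members and above them for 10, where 74.9% of all genes did not overlap. The median over members was -0.18 and over all genes -0.02; the members' median was 0.02 without WT EB replicate A, -0.28 without WT EB replicate B and -0.06 without KO EB replicate B. Scaling to the other protein-coding genes put the median of all genes at 0.15, and then 10 members rose and 8 fell. Endoderm markers differed between these groups as given above, and their part in the members' values was not tested.

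Hist1h4i again rose, with 2949 and 2259 in KO EBs against 964 and 776 in WT EBs, by 1.58 (SE 0.17, adjusted p = 9.49e-05). Hist1h1d, with 10064 and 9558 in KO EBs against 6358 and 5890 in WT EBs, rose by 0.68 (SE 0.07, adjusted p = 8.04e-05). Hist1h4n, another H4 gene, had 2091 and 1640 in KO EBs against 1469 and 1209 in WT EBs and rose by 0.47 (SE 0.17, adjusted p = 0.0425), but not without WT EB replicate B or KO EB replicate A (highest adjusted p = 0.247). Only 14.4% of its 50-base words are unique, so its level is uncertain. Hist1h1c had 9460 and 8337 in KO EBs against 7359 and 6371 in WT EBs and rose by 0.38 (SE 0.11, adjusted p = 0.017), though not without WT EB replicate B or KO EB replicate A (highest adjusted p = 0.116). Among the 9 that fell, Hist1h2bj fell most, with 814 and 709 in KO EBs against 2335 and 1994 in WT EBs, by 1.5 (SE 0.11, adjusted p = 1.06e-05). Hist2h2ac had 952 and 791 in KO EBs against 1911 and 1396 in WT EBs and fell by 0.91 (SE 0.18, adjusted p = 0.0025). The H2A gene Hist1h2an, with 14.2% of its words unique and 35.9% of its exon length overlapped, had 189 and 155 in KO EBs against 333 and 320 in WT EBs. It fell by 0.93 (SE 0.15, adjusted p = 0.00108), Hist1h1b by 0.90 (SE 0.07, adjusted p = 1.99e-05) and Hist1h1a by 0.53 (SE 0.07, adjusted p = 0.000217). Hist1h2ao, named after its values were seen, had 0.706 and 98.5 in KO EBs against 3.06 and 1.72 in WT EBs, and its 6.5% of unique words makes it uncertain.

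The difference between the 2 KO effects was itself tested, as EBs minus ESCs. It passed for 8 members, 7 of them positive and 1 negative, against 36.1% of all tested genes in either direction (16.2% positive and 19.9% negative). The count was 16 without WT EB replicate A (29.9% of all tested genes) and 15 when median-centred (36.7%) or scaled to other protein-coding genes (37.1%). It was 5 with a mean of 50 or more (39.1%), and 29 (25 positive and 4 negative) with the replicate block (57.4%). Hist1h1a (0.97, SE 0.09, adjusted p = 0.000104) and Hist1h2bn (1.17, SE 0.12, adjusted p = 0.000163) had the smaller fall in EBs. Hist1h2bn had 1059 and 1010 in KO EBs against 1148 and 1324 in WT EBs, and its difference of -0.25 there (adjusted p = 0.0346) did not pass without WT EB replicate B, KO EB replicate A or KO EB replicate B (highest adjusted p = 0.223), nor with edgeR or DESeq2. Hist1h2bj had the larger fall in EBs, with a difference of -0.66 (SE 0.15, adjusted p = 0.00964). For Hist1h4i the difference was 0.12 (SE 0.24, adjusted p = 0.74). Over the 51 members the KO differences in ESCs and EBs had Pearson's r = 0.63 and Spearman's rho = 0.77, given as a description over genes that are not independent, and 39 of 51 had the same sign.

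**Figure D4:**
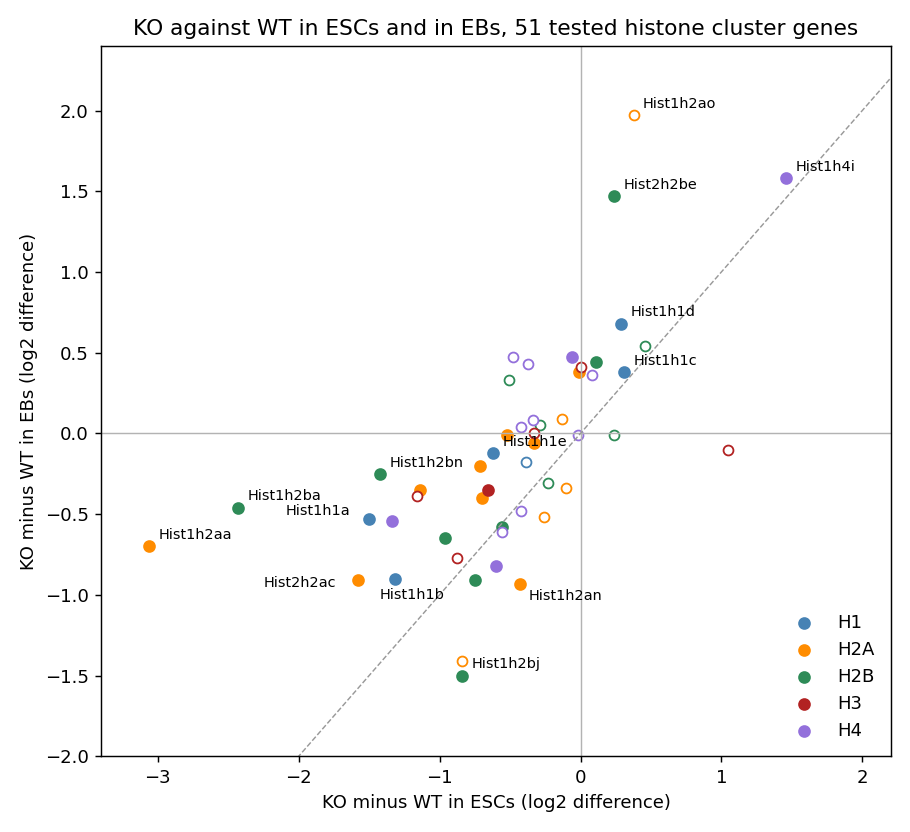
KO minus WT log2 difference in ESCs (horizontal) against that in EBs (vertical) for the 51 tested histone cluster genes, coloured by class; filled points passed an adjusted p under 0.05 in at least 1 of the 2 comparisons, and the dashed line marks equal differences. Hist1h4i lies near (1.46, 1.58), Hist1h2bj near (-0.84, -1.5) and Hist1h1a near (-1.5, -0.53).

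EBs held fewer of these transcripts than ESCs in WT cells. Sums were 113245 and 88285 in WT EBs against 166642 and 137310 in WT ESCs, a ratio of 0.663 with no overlap, and 112477 and 92683 in KO EBs against 135345 and 110162 in KO ESCs, a ratio of 0.836 with overlap. In WT, 23 members fell and 3 rose in EBs, where 46.1% of tested genes passed (23.6% lower and 22.5% higher), with a median of -0.47 against -0.04 over all genes. In KO, 9 fell and 7 rose, where 47.2% passed (26.0% lower and 21.1% higher), with a median of -0.16 against -0.06, and scaling to other protein-coding genes gave 8 higher and 3 lower, with a median of 0.01 against 0.11. The KO median was -0.04 without KO ESC replicate A, -0.05 without KO EB replicate B and -0.31 without KO ESC replicate B, and the WT median was -0.29 without WT EB replicate B. EB libraries lay below both ESC libraries for 29 members and above for 5 in WT, and for 14 and 8 in KO, where 71.8% and 73.0% of all genes did not overlap. Without WT ESC replicate A 14 members passed in WT, without WT EB replicate B 15, and in KO 10 passed without KO ESC replicate A and 10 without KO EB replicate B. A fit that counted replicate C among the ESCs called no member, where 2.48% of all tested genes passed in WT and 0.805% in KO. It turned the members' medians to 2.87 in WT and 3.09 in KO. All 10 naive ESC markers were lower and all 8 endoderm markers higher in WT EBs than in WT ESCs, and their part in the members' values was not tested.

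Hist1h1a fell most in WT EBs, among members averaging at least 100 in WT EBs or WT ESCs, with 4490 and 4796 in WT EBs against 10566 and 10686 in WT ESCs, by 1.20 (SE 0.07, adjusted p = 2.94e-06). In KO cells it was 3211 and 3217 in EBs against 3842 and 3684 in ESCs (log2 difference -0.23, SE 0.07, adjusted p = 0.0197), a call lost when any of these 4 libraries was left out (highest adjusted p = 0.118). Hist1h2bn fell by 0.99 (SE 0.09, adjusted p = 3.38e-05) and Hist1h3c, an H3 gene, by 0.91 (SE 0.18, adjusted p = 0.00364) in WT EBs. In KO EBs, Hist1h2bj (-1.16, SE 0.11, adjusted p = 5.04e-05), Hist1h2bk (-0.84, SE 0.24, adjusted p = 0.0196) and Hist1h1c (-0.72, SE 0.11, adjusted p = 0.000693) fell, of which Hist1h2bk did not pass without KO ESC replicate A or KO EB replicate B (highest adjusted p = 0.0987).

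Linker histone Hist1h1e ran against most others, with 2258 and 1906 in KO EBs against 1115 and 994 in KO ESCs (0.98, SE 0.12, adjusted p = 0.000283), and 2476 and 2051 in WT EBs against 1734 and 1516 in WT ESCs (0.47, SE 0.12, adjusted p = 0.0131); the WT call was lost without WT ESC replicate B or WT EB replicate A (highest adjusted p = 0.0898). Hist3h2ba, an H2B gene on chromosome 11, rose in EBs of both genotypes, to 172 and 111 in KO EBs against 55.5 and 40 in KO ESCs (1.53, SE 0.26, adjusted p = 0.00137), and to 251 and 189 in WT EBs against 107 and 80.9 in WT ESCs (1.22, SE 0.26, adjusted p = 0.00476). Its KO difference was -0.96 in ESCs (adjusted p = 0.012, and 0.0825 at the highest without WT replicate A or KO replicate B); other tested chromosome 11 genes had a median KO difference of -0.31 in ESCs and -0.44 in EBs, against -0.03 and -0.06 for chromosome 3. Their part in this value was not tested.

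Other genes of the histone pathway and of the cell cycle were read beside the members. Their counts stand against 55.0% of all tested genes that passed in KO against WT ESCs and 51.8% in KO against WT EBs. Of 11 histone genes outside the clusters, 2 rose and 7 fell in KO ESCs, and 4 rose and 4 fell in KO EBs. H1f0, a replacement linker histone, had 1763 and 1458 normalized counts in KO ESCs against 402 and 343 in WT ESCs (2.11, SE 0.14, adjusted p = 9.95e-06). Of 18 genes for processing histone messenger RNA, 3 rose and 8 fell in KO ESCs. Slbp had 581 and 569 in KO ESCs against 738 and 721 in WT ESCs (-0.34, SE 0.07, adjusted p = 0.0033), and Npat, the activator of histone genes, 411 and 455 in KO ESCs against 427 and 477 in WT ESCs (-0.06, SE 0.13, adjusted p = 0.703). Lsm10, a U7 particle protein, had 447 and 470 in KO ESCs against 144 and 137 in WT ESCs (1.70, SE 0.10, adjusted p = 4.04e-06).

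Of 26 S-phase genes, 16 fell and 1 rose in KO ESCs (median -0.37), where 55.0% of all tested genes passed. In KO EBs 13 fell and 2 rose (-0.26), where 51.8% passed. In WT EBs against WT ESCs 20 fell and none rose (-0.55), where 46.1% passed. In KO EBs against KO ESCs 16 fell and 2 rose (-0.36), where 47.2% passed. In ESC replicate C, as given, 14 were higher while 49 of 51 members were lower. Their part in the members' values was not tested. Of 18 histone chaperones, 6 fell and 3 rose in KO ESCs, and Nasp, the chaperone of H1 and H3, had 1883 and 2091 in KO ESCs against 3813 and 4665 in WT ESCs (-1.09, SE 0.13, adjusted p = 0.000191). Among 13 tested RNAs without a tail, 2 rose and 1 fell in KO ESCs, and 7 rose and 1 fell in KO EBs.

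**Figure D5:**
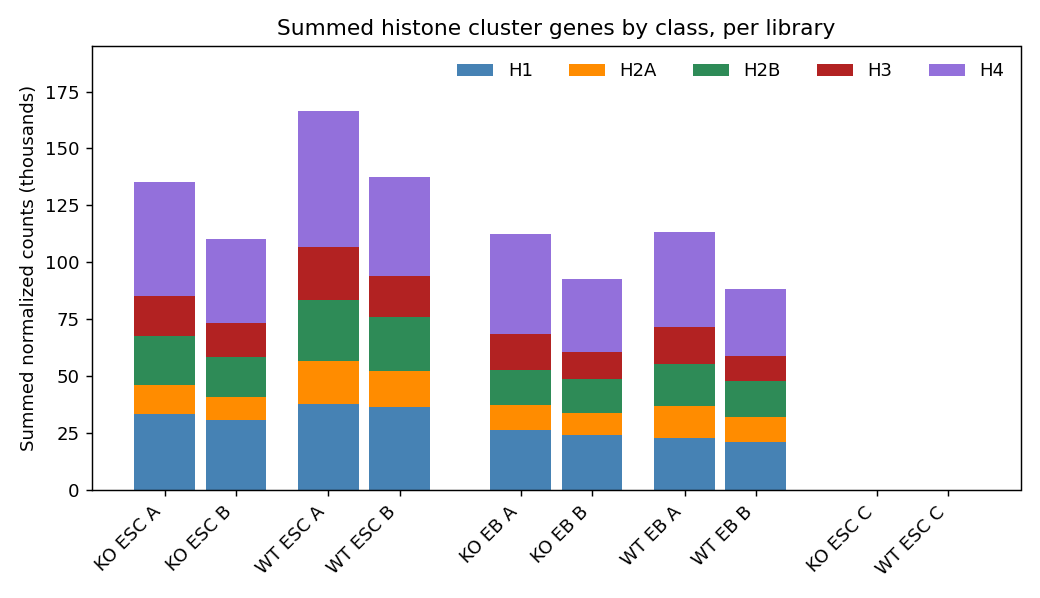
Sum of normalized counts of all 59 histone cluster genes (vertical axis, in units of 1000, from 0) per library, stacked by class. KO ESC replicates reach 135345 and 110162 and WT ESC replicates 166642 and 137310; replicate C bars of 267 and 204 are too small to see, and replicate A is above B in each group.

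Within each group, replicate A held more histone cluster RNA than replicate B. The sum ratio was 1.23 in KO ESCs, 1.21 in WT ESCs, 1.21 in KO EBs and 1.28 in WT EBs. A was above B for 45, 44, 41 and 47 of the 51 members in the same groups, with median log2 differences of 0.33, 0.26, 0.24 and 0.33, against 0.02, 0.01, 0.01 and 0.00 over all tested genes. RNAs without a tail were also higher in A by 0.43, 0.21, 0.45 and 0.22 at the median of 13, while Rn7sk itself was lower in A in every group. Which step made A and B differ was not tested.

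Upstream sequence was looked at for the 54 members matched by name in the RefSeq promoter table. CCAAT, searched on both strands, was found in 45 (83.3%) against 37.4% of 32851 promoters, and TATAAA in 32 (59.3%) against 13.6%. The 9 without CCAAT were all H4 genes, since 3 of 12 H4 promoters and 42 of 42 others held it. AAACACA, the H1 box of linker histone genes, was in 8 (14.8%) against 7.2%, and in 5 of 6 H1 promoters. The 1 without it was Hist1h1a, the linker gene that fell most in KO ESCs, and it is shown beside Hist1h1c, which rose and holds it. Hist1h1b and Hist1h1e hold it too and fell in KO ESCs, so the motif did not part the linker genes that rose from those that fell. These matches are descriptions of the letters, and no match says only that they are not in this window. Sequences run 5′ to 3′ on the gene's strand with matches to these motifs on either strand in capitals, from GRCm38.p6 at chr13:23763418-23763717 for Hist1h1a and chr13:23738557-23738856 for Hist1h1c, both on the plus strand.
Hist1h1a: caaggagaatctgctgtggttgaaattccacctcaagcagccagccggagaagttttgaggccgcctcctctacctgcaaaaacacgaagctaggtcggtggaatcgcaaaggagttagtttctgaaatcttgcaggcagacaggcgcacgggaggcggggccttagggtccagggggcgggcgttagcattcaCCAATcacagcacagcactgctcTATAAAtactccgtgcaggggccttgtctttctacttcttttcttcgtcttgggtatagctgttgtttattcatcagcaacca
Hist1h1c: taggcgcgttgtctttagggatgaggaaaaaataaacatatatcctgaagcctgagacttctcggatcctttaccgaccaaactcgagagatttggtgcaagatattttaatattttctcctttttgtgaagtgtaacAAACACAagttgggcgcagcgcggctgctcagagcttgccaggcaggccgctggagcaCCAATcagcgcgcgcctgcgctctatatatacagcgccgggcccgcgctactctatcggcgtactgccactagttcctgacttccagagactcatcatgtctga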

How the data were processed

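Poly(A) RNA libraries, as the series text calls them, were made with the TruSeq RNA kit v2, per the labels' protocols; the kit does not keep the strand. Per the submitters' processing notes, TopHat2 (2.0.10) with Bowtie, HTSeq (0.6.0), CASAVA (1.8.2) and DESeq were used, on build mm10; annotation release and strand setting are not given in the sources used here. The deposited table holds normalized signal, that is gene counts the authors divided by a size factor. When each library's lowest nonzero value was taken as 1 read, all others were whole reads in 100.0% of values (tolerance 0.01). Symbols matched 37607 of 39179 identifiers, and 5 summary lines of the counter were left out; over the 10 libraries, reads in no annotated feature made up 34.0% to 38.8% of a column's total and reads aligned to several places 28.7% to 46.1%.

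limma 3.58.1 in R 4.3.3 was fitted to log2(value + 1) of genes with a mean of 10 or more, with trended, robust variances, 4 group means and the 8 libraries labelled A and B (two-sided, Benjamini-Hochberg, threshold 0.05). The replicate C term used all 10 libraries. edgeR 4.0.16 and DESeq2 1.42.0, on the recovered reads, were alternatives, as were a pseudocount, a filter, scalings, a replicate block and leaving out each library. The fit was also run on simulated counts. Their libraries were drawn independently and without the shift between A and B seen here, so that run says nothing on this shift. The members, lists and rules were chosen with earlier results of these data known. Genes named with values were taken from the 2 most abundant per kilobase in each class; per comparison and direction the 3 largest changes among called members averaging at least 100 in the higher group; the 6 most abundant in ESC replicate C; the testis members; in each context list the most abundant gene and the largest called changes; and Mettl3, Slbp, Npat, H2afz, H3f3a, H3f3b and Rn7sk. Others, such as Hist1h2ao, were named after their values were seen. The embryonic fibroblast library was not analysed here.

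Same-letter KO and WT ESC libraries deviated together from their group means (r = 0.845, 0.828 and 0.858 for A, B and C). Those means include C, which lay far from A and B in both genotypes, so these values cannot show that A and B are paired. With A and B alone, r was 0.325 in ESCs and 0.369 in EBs. Each stage then had 2 pairs, too few to decide, so the replicate block is given only as an alternative.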

Additional observations from a re-analysis of the deposited data

Results flagged for a closer look

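The following members had a KO effect that differed between EBs and ESCs by a test of the difference itself (limma, Benjamini-Hochberg over all genes), given as the KO effect in EBs minus that in ESCs on the log2 scale. Hist1h2aa differed by 2.36 and Hist1h2ba by 1.97, Hist1h2bn by 1.17 and Hist1h1a by 0.97. Hist1h1b differed by 0.42, Hist1h1d by 0.39 and Hist2h2be by 1.24, of which Hist2h2be had 26.8 and 24.6 normalized counts in KO EBs against 10.7 and 6.89 in WT EBs, and 8.71 and 9.08 in KO ESCs against 7.15 and 7.63 in WT ESCs. Hist1h2bj differed by -0.66. The calls of Hist2h2be, Hist1h1b and Hist1h1d were lost when single libraries were left out, with highest adjusted p values of 0.138, 0.0515 and 0.0648; the other 5 were kept.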

How the results depend on the processing

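Libraries of the same letter are known only to share that letter, so whether letters mark pairs was not settled. With the replicate block, 34 members passed in KO against WT ESCs (28 lower, 6 higher), where 70.5% of all tested genes passed. The block gave 30 members in KO against WT EBs (67.6% of all tested genes) and 37 for the stage comparison within WT (64.4%). It gave 33 in KO EBs against KO ESCs (65% of all tested genes) and 29 for the difference of KO effects (57.4%). Counting replicate C among the ESCs left 0 members past the threshold in all 5 comparisons. Of all tested genes, 2.38%, 1.84%, 2.48%, 0.805% and 0.475% then passed. With the replicate block added, that gave 5, 6, 46, 47 and 1 members, where 29.3%, 22.7%, 37.9%, 37.9% and 7.79% of all tested genes passed. The order is KO against WT ESCs, KO against WT EBs, WT EBs against ESCs, KO EBs against ESCs and the difference. In those fits with C, block or not, medians were 2.87 in WT and 3.09 in KO EBs against ESCs, and directions turned as follows on the log2 scale. For WT EBs against WT ESCs: Hist1h1a 1.57, Hist1h1c 2.45, Hist1h2ak 3.32, Hist1h2ai 3.22, Hist1h2bb 3.45, Hist1h2bg 3.39, Hist1h3c 3.41, Hist1h1d 3.81, Hist2h2ac 2.99, Hist1h2bn 2.76, Hist1h4n 3.06, Hist1h2bj 2.66, Hist1h2bk 2.97, Hist1h1b 2.05, Hist1h3e 3.86, Hist1h4f 3.69, Hist1h4k 3.48, Hist1h2bf 3.03, Hist1h2bc 1.59. For KO EBs against KO ESCs: Hist1h1a 3.09, Hist1h1c 1.6, Hist1h2bb 3.69, Hist1h2bg 3.75, Hist1h3c 3.63, Hist1h2bj 2.42, Hist1h2bk 2.82, Hist1h1b 3.18, Hist1h2ai 2.66, Hist1h4f 3.99, Hist1h1d 3.22, Hist2h2ac 3.13, Hist1h4n 3.58, Hist1h2an 2.37, Hist1h2bc 1.02. For KO against WT ESCs: Hist1h2ai 0.17; for the difference: Hist1h1d -0.59. The difference had 5 calls with a mean of 50 or more, 15 median-centred and 15 scaled to other protein-coding genes. Of all tested genes, 39.1%, 36.7% and 37.1% passed there, and the cause was not tested. Leaving out 1 library gave 17 to 25 calls in KO against WT ESCs, 15 to 18 in KO against WT EBs, 14 to 27 in WT EBs against ESCs, 10 to 18 in KO EBs against ESCs, 6 to 16 for the difference (16 without WT EB replicate A) and 48 to 49 for C. The median for C was -12.44 with pseudocount 0.1, -7.51 with pseudocount 8, -9.49 median-centred, -10.97 with edgeR, -10.49 with DESeq2 and -7.39 with members under 3 reads set at 3 reads. The 12 alternative values of the histone sum ratios stayed within the spread of the libraries. Depth limits replicate C most, where 3 reads stand for 8.33 normalized counts in KO and 9.88 in WT.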

Other observations

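Hist1h2al, a processed pseudogene on chromosome 13 (51202727 to 51203065) that lies outside the Hist1 region and is no member, was chosen after its values were seen. It had 1657 and 1075 normalized counts in KO ESCs against 217 and 84.0 in WT ESCs (log2 difference 3.3, SE 0.60, adjusted p = 0.00366), and 1511 and 1013 in KO EBs against 120 and 42.2 in WT EBs (4.10, SE 0.60, adjusted p = 0.00148). No read was seen in either replicate C library. Hist1h2aj, a pseudogene within the Hist1 region (chromosome 13, 21721457 to 21721808), went the other way, with 367 and 442 in KO ESCs against 950 and 1117 in WT ESCs (-1.35, SE 0.12, adjusted p = 3.06e-05).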
